A study of Homo sapiens with 8 samples.

Results

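The immediate early EGR and AP-1 genes EGR1, EGR3, FOS, FOSB, FOSL1, FOSL2, JUN, JUNB, JUND and IER2 were chosen by symbol. The choice was made with earlier results of these data known, so member counts set against all entries are descriptions. All 10 genes were found among the 29991 entries of the series table. They were measured by RNA sequencing in MCF10A, a non-transformed human breast epithelial cell line, in 8 libraries from 4 groups of 2. The groups had been transfected with siLATS1/2 (siRNA against the kinases LATS1 and LATS2), sip53 (siRNA against p53), siLATS1/2/p53 (against all of these) or siControl, so the control cells had been transfected with siRNA as well. Each group had 1 library from each of 2 independent batches of cells. The time between transfection and harvest and the state of serum or growth factors were not given in the sources used here. Values are the deposited log2 levels, differences are log2 differences, and a gene was called where its limma p, adjusted by Benjamini-Hochberg over 12315 tested entries, was under 0.05. Of the 10 genes, 8 were above the lowest value of the table, 5, in all libraries and FOSB in all but 1. EGR3 stood at that floor in all 8 libraries and was not tested. In bulk RNA, fewer cells with a transcript and less of it per cell cannot be told apart.

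Immediate early genes are transcribed within minutes of a growth factor or stress signal without new protein synthesis, largely through ERK and other kinases acting on transcription factors already bound at their promoters. EGR1 and EGR3 encode zinc finger transcription factors. The FOS proteins (FOS, FOSB, FOSL1, FOSL2) pair with the JUN proteins (JUN, JUNB, JUND) through leucine zippers to form AP-1, and JUN proteins can also pair with one another. FOS and JUN are the classic activating members, whereas FOSL1, FOSL2 and JUND are often present in growing epithelial cells without acute stimulation. LATS1 and LATS2 phosphorylate and restrain the coactivators YAP and TAZ, which bind DNA through TEAD factors, often at enhancers that also hold AP-1.

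Promoters of EGR1, FOS and JUN are shown because these 3 genes had the widest range of group means among those above the floor in every library. The sequences are the 250 bases before the RefSeq start site in build GRCh38.p14, 5′ to 3′ on the strand of the gene, and 8 of the 10 genes had an entry (no EGR3 or FOSL1). Capitals mark CArG boxes (the binding site of SRF) and an EGR site in EGR1 (chr5:138465229-138465478, plus strand), the TATA box in FOS (chr14:75278578-75278827, plus strand), and a CCAAT box and then a variant AP-1 site in JUN (chr1:58784048-58784297, minus strand).
EGR1: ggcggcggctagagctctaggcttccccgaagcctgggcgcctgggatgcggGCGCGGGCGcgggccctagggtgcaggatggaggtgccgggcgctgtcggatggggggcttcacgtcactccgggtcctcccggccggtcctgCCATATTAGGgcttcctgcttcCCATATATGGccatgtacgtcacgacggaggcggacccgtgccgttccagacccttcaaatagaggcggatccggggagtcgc
FOS: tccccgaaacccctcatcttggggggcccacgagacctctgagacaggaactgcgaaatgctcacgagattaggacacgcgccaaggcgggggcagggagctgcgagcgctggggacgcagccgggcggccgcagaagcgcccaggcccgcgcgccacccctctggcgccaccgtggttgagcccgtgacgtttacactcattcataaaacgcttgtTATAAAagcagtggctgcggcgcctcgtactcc
JUN: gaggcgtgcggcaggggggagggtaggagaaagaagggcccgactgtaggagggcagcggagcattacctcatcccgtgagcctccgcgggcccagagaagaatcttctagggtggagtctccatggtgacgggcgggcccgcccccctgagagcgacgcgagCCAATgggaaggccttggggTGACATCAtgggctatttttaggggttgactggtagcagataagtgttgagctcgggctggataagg
Motifs were searched on both strands. EGR1 held 2 CArG boxes, 105 to 96 and 83 to 74 bases before the start. It was the only one of the 8 genes with any in the 250 bases searched, against 1.16% of the 35116 promoters in the table. It also held the EGR site GCGNGGGCG 198 to 190 bases before its start, a motif in 8.41% of promoters. JUN held the variant AP-1 site TGACATCA, found in 2.37% of promoters, 67 to 60 bases before its start, and JUND held the CRE TGACGTCA, found in 1.65%, at 200 to 193. TATAAA was present in FOS, FOSB and JUNB (10.7% of promoters), and CCAAT in JUN, JUNB and JUND (32% of promoters). None of the 8 windows contained the AP-1 site TGANTCA (6.57% of promoters), the TEAD motif GGAATG (11.9%) or a p53 half-site (5.57%). These matches describe letters within the window and do not show binding. Bases farther upstream were not searched, so a missing match does not mean that a gene lacks the site.

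The knockdowns were checked first. LATS1 (-1.58 ± 0.11, log2 difference ± SE) and LATS2 (-1.39 ± 0.14) fell in siLATS1/2 libraries, and the p53 targets CDKN1A (-2.62 ± 0.19) and MDM2 (-1.18 ± 0.13) fell in sip53 libraries, all relative to siControl. In siLATS1/2/p53 libraries LATS1 (-1.66), LATS2 (-1.29), CDKN1A (-2.54) and MDM2 (-1.49) all fell. All 10 basal breast epithelial markers were above the floor in every library, and 7 of 9 blood and endothelial and 5 of 7 fibroblast markers were at the floor in all, among them PTPRC, PECAM1, PDGFRA and COL1A2, while CD14, CD68 and COL1A1 were above it in all. Of 7 luminal markers, GATA3, KRT8, KRT18 and FOXA1 were above the floor in all libraries, and PGR and KRT19 at it in all. The summed linear level of the luminal list was 5698 to 7858 in siLATS1/2, 3025 to 3970 in sip53, 7073 to 9226 in siLATS1/2/p53 and 2766 to 3594 in siControl libraries, higher in both groups that received LATS1/2 siRNA. The summed basal list was 350952 to 418098 in siLATS1/2, 303701 to 379408 in sip53 and 285327 to 350644 in siLATS1/2/p53 libraries. It was 414538 to 519712 in siControl libraries, a range that only that of siLATS1/2 overlapped. The part of these differences in the results was not tested. Read depth was not given, and 11756 to 12064 entries per library were above the floor. The fit without the batch took its spread from all 8 libraries. Fitted by limma on the 4 libraries of a pair alone, no entry passed, with 2050 to 3673 at an unadjusted p under 0.05, in any pair except siLATS1/2/p53 against siControl, where 374 entries passed, EGR1 and FOS among them. Libraries of the same batch deviated together, and the labels name the batches, so results with batch as a replicate block are given wherever they changed a call. Rescaling the libraries by medians of ratios moved the share of called entries that were higher to 55.6%, against 36.5% as deposited, for siLATS1/2 over siControl. The same shares were 26.2% against 45.7% for sip53, 47.4% against 62.3% for siLATS1/2/p53 over siControl, and 45.8% against 77.9% for siLATS1/2/p53 over siLATS1/2, where rescaling moved the median of all entries by -0.16.

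**Figure D1:**
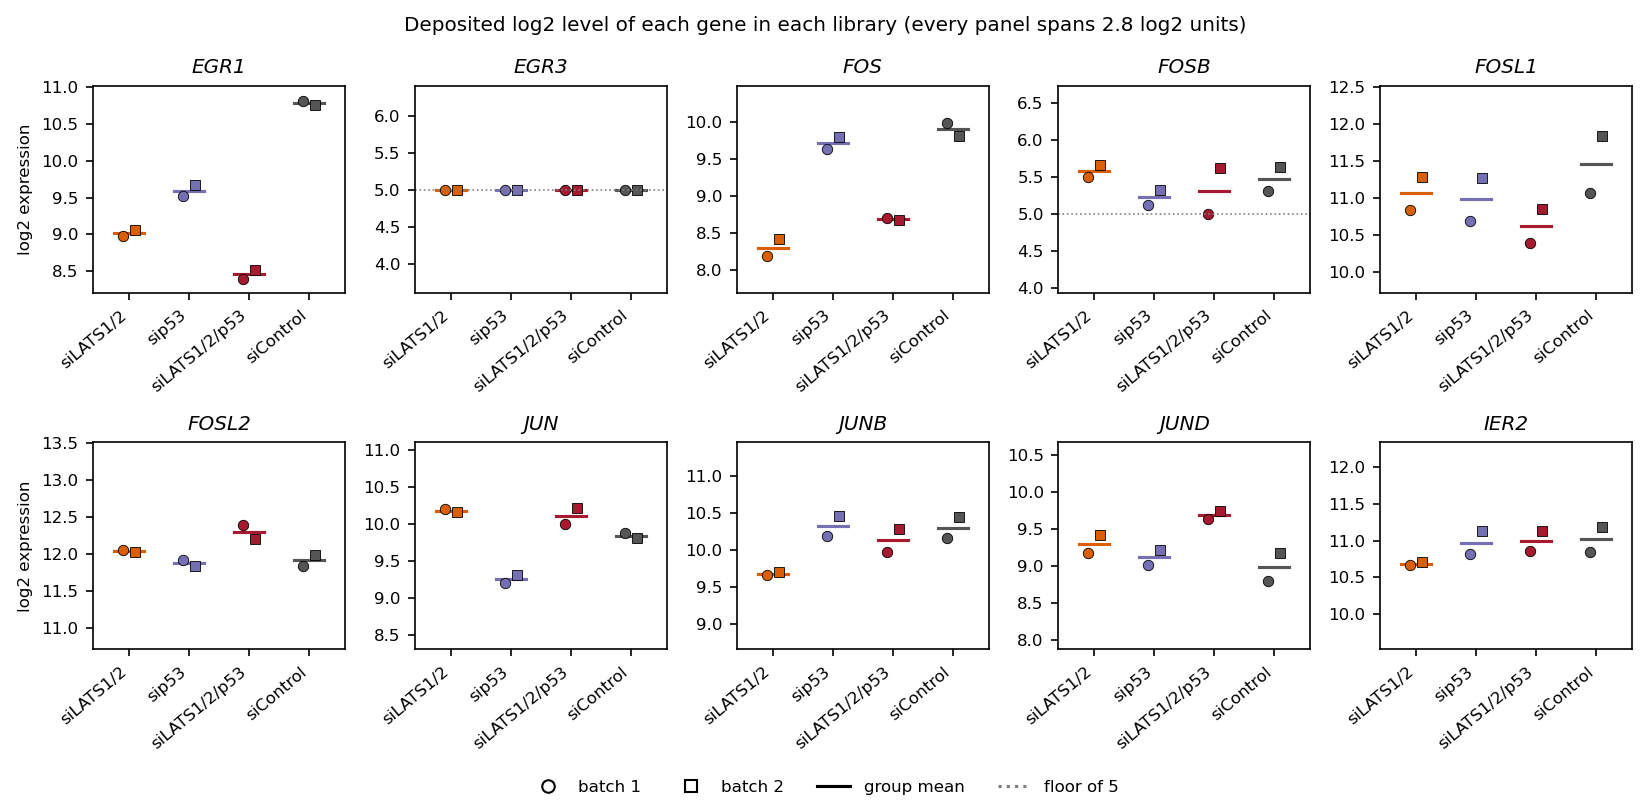
Deposited log2 level (y axis) of the 10 genes in each library by siRNA group (x axis), with circles for batch 1, squares for batch 2, a bar at the mean of each group and the floor of 5 dotted. EGR1 lies highest in siControl and lowest in siLATS1/2/p53, FOS is low in both groups that received LATS1/2 siRNA, JUN is low in sip53, and EGR3 lies on the floor throughout.

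The first question was how LATS1/2 knockdown alone affected these genes. Without the replicate block, EGR1 and FOS were the 2 members called lower, and none was called higher. EGR1 measured 8.98 and 9.07 in siLATS1/2 libraries, against 10.81 and 10.74 in siControl libraries. FOS measured 8.18 and 8.42 in siLATS1/2 libraries, against 9.98 and 9.80 in siControl libraries. For both genes the 2 groups were far apart and the direction was the same in both batches. EGR1 was 3.38-fold lower (-1.76 ± 0.11, adjusted p = 0.00056) and FOS 3.02-fold lower (-1.60 ± 0.13, adjusted p = 0.0018). These 2 of 9 tested genes stood against 4.89% of all entries called lower and 2.81% called higher, and both calls held without any single library. None of the JUN genes was called without the replicate block at the filter used. JUNB, an AP-1 subunit that can oppose JUN, measured 9.66 and 9.71 in siLATS1/2 libraries, against 10.17 and 10.45 in siControl libraries. Its values did not overlap between the groups, nor did those of the uncalled JUN, JUND, FOSL2 and IER2. The share of all entries without overlap was not counted, so this separation alone is not evidence of a change. The JUNB difference of -0.62 ± 0.15 missed the threshold (adjusted p = 0.0502), which it passed when only entries above the floor in all 8 libraries were tested. JUN measured 10.20 and 10.16 in siLATS1/2 libraries, against 9.88 and 9.81 in siControl libraries, a difference of 0.33 ± 0.11 (adjusted p = 0.10) with both siLATS1/2 libraries above both controls. With the replicate block, which called 32% of all entries, 7 of the 9 genes passed. JUN (adjusted p = 0.016) and JUND (0.31 ± 0.10, adjusted p = 0.028) were then higher, and JUNB (adjusted p = 0.00015), FOSL1 (-0.39 ± 0.09, adjusted p = 0.0038) and IER2 (-0.33 ± 0.08, adjusted p = 0.0086) lower, beside EGR1 and FOS. IER2 encodes a small nuclear protein that is induced with FOS and JUN. FOSL2 (0.12 ± 0.10) and FOSB (0.10 ± 0.25) passed in neither fit, and FOSL2 passed narrowly with the block and rescaling (0.21, adjusted p = 0.049).

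The second question was the effect of p53 knockdown alone. EGR1 fell here too and JUN fell with it, whereas no fall of FOS was detected. EGR1 measured 9.52 and 9.67 in sip53 libraries, between the levels of the siLATS1/2 and siControl libraries and overlapping neither. It was 2.28-fold lower than in siControl libraries (-1.19 ± 0.11, adjusted p = 0.0049). Without the first sip53 library the EGR1 difference was -1.11 and missed the threshold (adjusted p = 0.063). JUN measured 9.20 and 9.31 in sip53 libraries, against 9.88 and 9.81 in siControl libraries, and was 1.51-fold lower (-0.59 ± 0.11, adjusted p = 0.035). Both sip53 libraries lay below every other library for JUN, an order whose share over all entries was not counted. That call was lost whichever single library was left out, with differences of -0.65 to -0.53 and adjusted p between 0.050 and 0.23. FOS measured 9.63 and 9.79 in sip53 libraries, against 9.98 and 9.80 in siControl libraries. Its difference of -0.18 ± 0.13 (adjusted p = 0.47) had a 95% interval of -0.48 to 0.12. JUNB (0.02), FOSL2 (-0.04), IER2 (-0.05) and JUND (0.13) had differences under 0.2 in size, each with an SE of 0.10 to 0.16, and rescaling turned that of JUNB to -0.04. The 2 genes called lower compared with 2.1% of all entries called lower and 1.76% called higher. The replicate block, which called 26% of entries, added FOSL1 as lower (-0.47 ± 0.09, adjusted p = 0.0015), giving 3 genes.

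With all of the siRNAs together, EGR1 reached its lowest level, FOS was again low, and FOSL2 and JUND were higher than in siControl cells. EGR1 measured 8.40 and 8.51 in siLATS1/2/p53 libraries, below every library of the other groups. It was 4.99-fold lower than in siControl libraries (-2.32 ± 0.11, adjusted p = 0.00021). FOS measured 8.69 and 8.67 in siLATS1/2/p53 libraries and was 2.32-fold lower (-1.21 ± 0.13, adjusted p = 0.0024). Both falls held without any single library. JUND, the least inducible of the JUN genes, measured 9.64 and 9.75 in siLATS1/2/p53 libraries, against 8.81 and 9.18 in siControl libraries, and rose 1.63-fold (0.70 ± 0.16, adjusted p = 0.028). FOSL2 measured 12.38 and 12.20 in siLATS1/2/p53 libraries, against 11.83 and 11.98 in siControl libraries, and rose (0.38 ± 0.10, adjusted p = 0.038). In each of these 2 genes both siLATS1/2/p53 libraries lay above every other library. The share of all entries with both siLATS1/2/p53 libraries above every other, or below as for EGR1, was not counted. The rise of FOSL2 missed the threshold after rescaling (0.31), without the mean-variance trend (0.38) and without any single library (adjusted p 0.055 to 0.16). That of JUND held in 3 of the 8 fits that left out a library and was lost without the first siControl library, either siLATS1/2 library or either siLATS1/2/p53 library, with differences of 0.52 to 0.89 over the 8 fits and adjusted p up to 0.13. The 2 genes called lower and 2 called higher stood against 5.48% and 9.07% of all entries. In the fit with the replicate block, which called 39.2% of entries, JUN was also higher (0.26 ± 0.09, adjusted p = 0.039) and FOSL1 lower (-0.83 ± 0.09, adjusted p = 4.62e-06), giving 6 genes. JUN measured 10.01 and 10.22 in siLATS1/2/p53 libraries, both above the siControl values, while JUNB (-0.17), IER2 (-0.03) and FOSB (-0.17) passed in neither fit. With the block and rescaling the count was again 6, but JUN was no longer called (0.19, adjusted p = 0.14) and JUNB was called lower (-0.25, adjusted p = 0.042). All 3 comparisons above use the same siControl libraries, so their directions are not independent of one another.

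**Figure D2:**
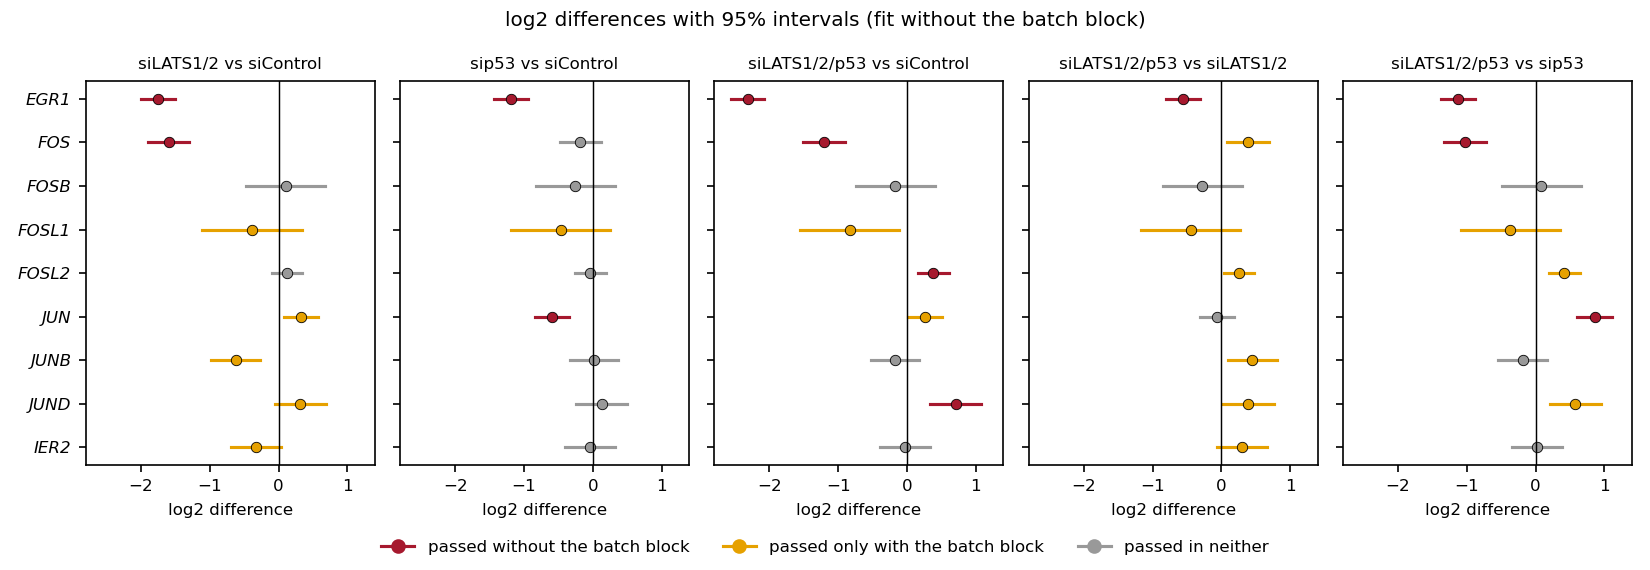
log2 difference (x axis) of each of the 9 tested genes (rows) in 5 comparisons, with 95% intervals from the fit without the batch block. Red marks genes called in that fit, yellow those called only with the block and grey those called in neither, and EGR1 is red and below 0 in all 5 panels.

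Adding p53 knockdown to LATS1/2 knockdown lowered EGR1 further. The siLATS1/2/p53 libraries, at 8.40 and 8.51, lay below the siLATS1/2 libraries, at 8.98 and 9.07, and the difference was -0.56 ± 0.11 (1.48-fold lower, adjusted p = 0.016). This was the only 1 of 9 genes called, against 3.22% of all entries called lower and 11.3% called higher. The call was lost without either siLATS1/2 library or without the first siLATS1/2/p53 library (differences of -0.62 to -0.51 and adjusted p up to 0.10 over the 8 fits). JUNB measured 9.98 and 10.28 in siLATS1/2/p53 libraries, above the 9.66 and 9.71 of siLATS1/2 libraries. FOS, at 8.69 and 8.67, also lay above the 8.18 and 8.42 of siLATS1/2 libraries. Adding the replicate block, which called 43.5% of entries, gave 7 genes. JUNB (0.45 ± 0.09, adjusted p = 0.0013), FOS (0.38 ± 0.11, adjusted p = 0.015), JUND (0.39 ± 0.10, adjusted p = 0.0070), IER2 (0.31 ± 0.08, adjusted p = 0.0098) and FOSL2 (0.26 ± 0.08, adjusted p = 0.018) were then higher, and FOSL1 (-0.45 ± 0.09, adjusted p = 0.0010) lower beside EGR1. Of these 7, only 3 (EGR1, FOSL1 and JUNB) passed when the libraries were also rescaled. JUN differed by -0.07 ± 0.11 (95% interval -0.32 to 0.18).

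Adding LATS1/2 knockdown to p53 knockdown raised JUN and lowered EGR1 and FOS. JUN measured 10.01 and 10.22 in siLATS1/2/p53 libraries, against 9.20 and 9.31 in sip53 libraries, a 1.81-fold rise (0.86 ± 0.11, adjusted p = 0.0091). EGR1 was 2.19-fold lower (-1.13 ± 0.11, adjusted p = 0.0028) and FOS 2.04-fold lower (-1.03 ± 0.13, adjusted p = 0.0097). No library overlapped between the groups for these 3 genes, nor for FOSL2 and JUND, which were not called in this fit. The share of all entries without overlap was not counted, so this separation alone is not evidence of a change. The EGR1 call held without any single library. The JUN call was lost without either sip53 library or the second siLATS1/2/p53 library (0.75 to 0.96, adjusted p up to 0.080), and that of FOS without any 1 of the 4 libraries compared (-1.11 to -0.95, adjusted p up to 0.10). The 1 gene called higher and 2 called lower stood against 2.54% and 1.12% of all entries. Under the replicate block, which called 22.1% of entries, FOSL2 (0.42 ± 0.08, adjusted p = 0.0018) and JUND (0.57 ± 0.10, adjusted p = 0.00099) were also higher and FOSL1 (-0.37 ± 0.09, adjusted p = 0.0071) lower, giving 6 genes.

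Whether the combined effect departed from the sum of the single effects was tested as an interaction on the log2 scale. For EGR1 the single differences summed to -2.94, against -2.32 measured after combined knockdown. For FOS the sum was -1.78, against -1.21 measured, and for JUN it was -0.26, against 0.26 measured. The median departure over the 9 genes was 0.35, against 0.10 over all tested entries, so most entries of the table also lay above their sum. FOSB (-0.02) and FOSL1 (0.02) lay closest to the sum. The departures of all genes rest on the same 8 libraries and are not independent of one another. limma called no gene, that is 0% of entries, although 807 of the 12315 had an unadjusted p under 0.05. With the replicate block 250 entries (2.03%) were called, EGR1 among them (0.62 ± 0.13, adjusted p = 0.034). JUN (0.52 ± 0.13, adjusted p = 0.061), FOS (0.57 ± 0.16, adjusted p = 0.087) and JUNB (0.43 ± 0.13, adjusted p = 0.092) missed the threshold in that fit. With the block and rescaling 81 entries and none of the 9 genes were called. Rescaling moved the interaction of FOSL1, 0.02 as deposited, to -0.07.

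**Figure D3:**
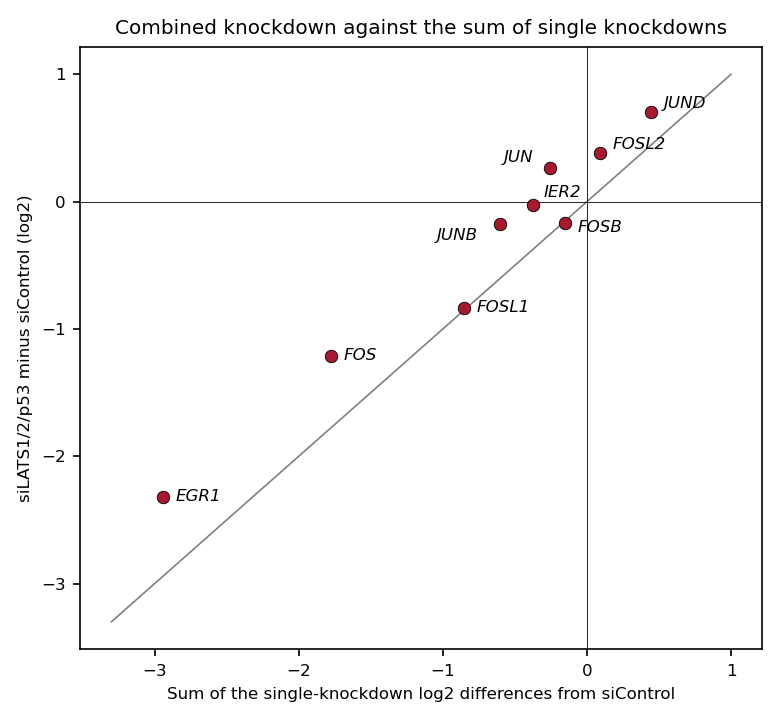
Measured log2 difference of siLATS1/2/p53 from siControl (y axis) against the sum of the siLATS1/2 and sip53 differences (x axis) for the 9 tested genes, with the line of equality. EGR1 lies at -2.94 and -2.32, FOS at -1.78 and -1.21, and FOSL1 close to the line.

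The members also differed between the batches of cells, and not all in the same way. In the fit with group and batch, FOSL1 was higher in batch 2 by 0.56 ± 0.06 (adjusted p = 1.76e-05). Its libraries measured 10.84 and 11.28 in siLATS1/2, 10.69 and 11.27 in sip53, 10.38 and 10.84 in siLATS1/2/p53, and 11.06 and 11.83 in siControl, batch 1 before batch 2. The batch 2 library was the higher one in 4 of 4 groups. The difference between batches was larger than the siLATS1/2 (-0.39) and sip53 (-0.47) differences of FOSL1 from siControl, both of which passed only with the block. IER2 (0.24 ± 0.06, adjusted p = 0.0090), JUND (0.23 ± 0.07, adjusted p = 0.025) and JUNB (0.22 ± 0.06, adjusted p = 0.016) were also higher in batch 2 in 4 of 4 groups. EGR1 (0.07), FOS (0.05), JUN (0.05), FOSL2 (-0.03) and FOSB (0.33) were not called. Without the mean-variance trend IER2 and JUNB missed the threshold and FOSB passed it. These 4 of 9 genes stood against 30.3% of all entries called between batches. Within each batch the EGR1 differences from siControl were -1.83 and -1.68 for siLATS1/2, -1.29 and -1.08 for sip53, and -2.41 and -2.23 for siLATS1/2/p53.

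**Figure D4:**
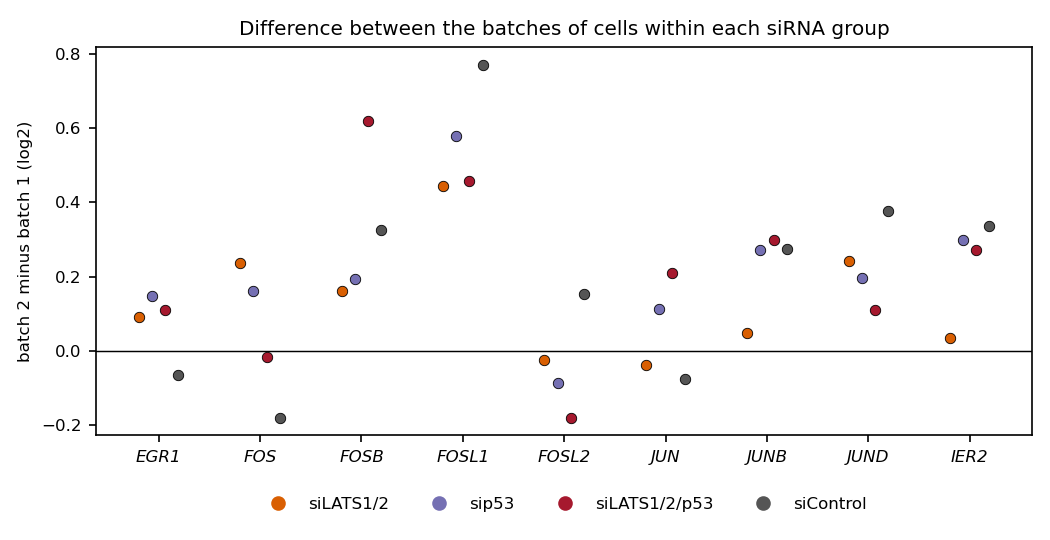
Difference of batch 2 from batch 1 in log2 units (y axis) for the 9 tested genes (x axis), with 1 point for each siRNA group. FOSL1, JUNB, JUND, IER2 and FOSB lie above 0 in all 4 groups, whereas EGR1, FOS, FOSL2 and JUN have points on both sides.

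FOSB, a FOS relative that was near the floor, measured 5.50 and 5.67 in siLATS1/2, 5.13 and 5.32 in sip53, 5 and 5.62 in siLATS1/2/p53, and 5.32 and 5.64 in siControl libraries, and the floor limits any fall it could show. Group means of IER2 spanned 0.33 and those of FOSL2 0.42, against 2.32 for EGR1, 1.60 for FOS, 0.92 for JUN, 0.83 for FOSL1, 0.70 for JUND and 0.64 for JUNB. By the root mean square difference of centred log2 values over 8 libraries, the pair of members with the closest profiles was JUNB and IER2 (0.14), followed by FOSL2 and JUND (0.18), and the farthest was EGR1 and JUND (1.11). The kit does not keep strand, and in GENCODE 29 JUNB shares 259 bases of exon with HOOK2 on the other strand (14.2% of its exon length), IER2 shares 946 with AC011446.2 (30.8%) and EGR3 shares 164 with AC055854.1 (3.38%), so reads there cannot be assigned to one gene.

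Among all 11225 other entries above the floor in every library, the profile nearest to EGR1 was that of SNAI2 (0.19), which encodes the transcription factor SLUG, followed by COPS8 (0.26), a COP9 signalosome subunit, and CA12 (0.28), a carbonic anhydrase. SNAI2 measured 9.41 and 9.82 in siLATS1/2, 10.10 and 10.55 in sip53, 9.01 and 9.27 in siLATS1/2/p53, and 11.08 and 11.45 in siControl libraries, the same order of group means as EGR1. FOS was nearest to SLITRK6 (0.16), XK (0.17) and N4BP2 (0.17), each lower in siLATS1/2 and in siLATS1/2/p53 than in siControl libraries by 1.09 to 1.71. JUN was nearest to PARP3 (0.11), KRT7 (0.12), a simple epithelial keratin, and PCDHA12 (0.12), whose reads may be shared within its gene cluster. KRT7 measured 14.48 and 14.45 in siLATS1/2, 13.43 and 13.42 in sip53, 14.32 and 14.25 in siLATS1/2/p53, and 13.96 and 14.20 in siControl libraries, and like JUN it was lowest in sip53. These likenesses are descriptions over 8 libraries that share their batches.

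**Figure D5:**
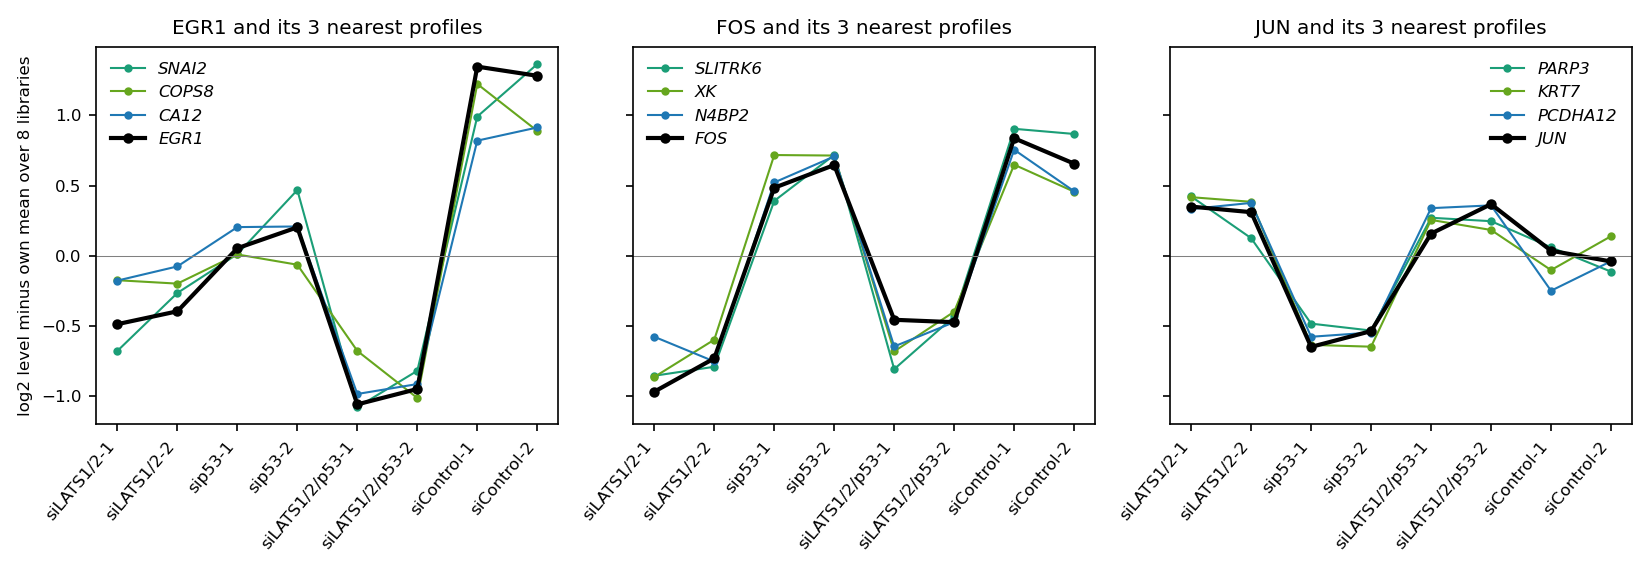
log2 level minus the mean of each gene over the 8 libraries (y axis) in each library (x axis) for EGR1, FOS and JUN, in black, with their 3 nearest profiles in colour. All 4 lines of the EGR1 panel are highest in siControl and lowest in siLATS1/2/p53 libraries, and those of the JUN panel are lowest in sip53 libraries.

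Other genes of the pathway were read from lists chosen with earlier results of these data in view. Without the block, 4.89% of all entries were lower and 2.81% higher in siLATS1/2, 2.1% lower and 1.76% higher in sip53, and 5.48% lower and 9.07% higher in siLATS1/2/p53 libraries, and the lists' counts stand against these shares. Of 7 tested upstream regulators, SRF, which binds CArG boxes, was not called in any comparison, with differences from siControl of -0.05, -0.02 and 0.15 in siLATS1/2, sip53 and siLATS1/2/p53 libraries. ELK3, an SRF partner that can repress, was the 1 regulator called in siLATS1/2 libraries (-0.46 ± 0.10, adjusted p = 0.037). It was lower in siLATS1/2/p53 libraries too (-0.42), where the SRF coactivator MKL1 rose by 0.60 ± 0.11 (adjusted p = 0.014). None was called in sip53 libraries. Of the 2 tested EGR partners, NAB2, a corepressor that binds EGR1 and whose gene is itself an EGR target, was lower in siLATS1/2 (-0.55 ± 0.13, adjusted p = 0.044) and siLATS1/2/p53 (-0.65 ± 0.13, adjusted p = 0.017) than in siControl libraries. In sip53 libraries NAB2 differed by -0.41 and was called only with the replicate block (adjusted p = 0.021). Of 7 other leucine zipper factors tested, ATF3, a stress-induced repressor that pairs with JUN proteins, was the 1 called. It measured 8.55 and 8.11 in siLATS1/2, 7.60 and 7.36 in sip53, 8.39 and 8.60 in siLATS1/2/p53, and 7.20 and 7.28 in siControl libraries, and was higher by 1.09 ± 0.18 (adjusted p = 0.018) in siLATS1/2 and by 1.25 ± 0.18 (adjusted p = 0.0068) in siLATS1/2/p53 libraries. Counts with the replicate block were 2 lower and 1 higher upstream regulators in siLATS1/2, 1 lower and 1 higher in sip53, and 1 lower and 2 higher in siLATS1/2/p53 libraries, against 32%, 26% and 39.2% of all entries called in either direction in these 3 comparisons. JDP2, another AP-1 repressor, was then called higher as well in siLATS1/2/p53 libraries (0.91).

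Of 12 tested ERK feedback genes, 2 were lower and none higher in siLATS1/2 libraries (median -0.16, against -0.07 for all entries), none was called in sip53 libraries, and 4 were lower and 1 higher in siLATS1/2/p53 libraries (median -0.35, against 0.08). DUSP6, the ERK phosphatase, measured 10.45 and 10.51 in siLATS1/2, 11.05 and 11.15 in sip53, 10.06 and 9.97 in siLATS1/2/p53, and 11.45 and 11.30 in siControl libraries. It fell in siLATS1/2 (-0.90 ± 0.09, adjusted p = 0.0036) and in siLATS1/2/p53 libraries (-1.36 ± 0.09, adjusted p = 0.00071), where PHLDA1 (-0.93) and SPRY4 (-0.72) fell and SPRY2 rose (0.54). Counts with the replicate block were 5 lower and 2 higher in siLATS1/2, 3 lower and 1 higher in sip53, and 7 lower and 2 higher in siLATS1/2/p53 libraries, against 32%, 26% and 39.2% of all entries called in either direction in these 3 comparisons.

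Of 22 other immediate early genes tested, 3 were lower and 2 higher in siLATS1/2, 6 lower and none higher in sip53, and 7 lower and 3 higher in siLATS1/2/p53 libraries, relative to siControl. Their median differences were -0.11, -0.17 and -0.19, against -0.07, 0.06 and 0.08 for all entries. GADD45B, a stress response gene, rose by 1.19 ± 0.14 in siLATS1/2 (adjusted p = 0.0055) and by 1.49 ± 0.14 in siLATS1/2/p53 libraries (adjusted p = 0.0016), opposite to EGR1 and FOS. SGK1 (0.79, adjusted p = 0.012) was the other gene called higher in siLATS1/2 libraries. MCL1 (-0.69, adjusted p = 0.022) and ZFP36L2 (-0.45, adjusted p = 0.029) were among those lower in siLATS1/2 libraries, in the direction of EGR1 and FOS. KLF10 (-0.60) and ZFP36L2 (-0.62) fell in sip53 libraries, as did BTG2 (-0.77), a known p53 target. Counts with the replicate block were 7 lower and 4 higher in siLATS1/2, 9 lower and 2 higher in sip53, and 10 lower and 4 higher in siLATS1/2/p53 libraries, against 32%, 26% and 39.2% of all entries called in either direction in these 3 comparisons.

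Genes known as AP-1 targets in other settings had calls in both directions, with medians below those of all entries. Of 11 tested, 1 was lower and 1 higher in siLATS1/2, 2 lower and 1 higher in sip53, and 2 lower and 2 higher in siLATS1/2/p53 libraries, relative to siControl, with medians of -0.21, -0.21 and -0.42, against -0.07, 0.06 and 0.08 for all entries. PLAUR, the urokinase receptor, was higher in all 3 groups, by 0.43 (adjusted p = 0.034), 0.56 (adjusted p = 0.027) and 1.15 (adjusted p = 0.0011). HBEGF, an EGF receptor ligand, fell in sip53 (-0.70) and in siLATS1/2/p53 libraries (-1.19). IL6 measured 7.18 and 7.20 in siLATS1/2/p53 libraries and stood at the floor in both siControl and both sip53 libraries. Counts with the replicate block were 6 lower and 1 higher in siLATS1/2, 5 lower and 2 higher in sip53, and 7 lower and 3 higher in siLATS1/2/p53 libraries, against 32%, 26% and 39.2% of all entries called in either direction in these 3 comparisons. By direction, the block called 2638 entries lower and 1299 higher in siLATS1/2, 1234 and 1965 in sip53, and 1697 and 3135 in siLATS1/2/p53 libraries.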

How the data were processed

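RNA from 8 MCF10A libraries, 2 for each of 4 siRNA groups, was prepared with the TruSeq RNA v2 kit, which does not keep strand, and the libraries were multiplexed on 1 lane, per the labels' protocols. TopHat and hg19 were used, per the submitters' processing notes. Read counter, annotation and scaling were not given in the sources used here. An expression level on a log2 scale was assumed for the deposited numbers, from their range and floor. The table's lowest value is 5 (32 on the linear scale), which understates changes of low genes. Without known depth or gene lengths, levels were not compared between genes. The columns of the series table equalled the files of single samples for 8 of 8 libraries.

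No pseudocount was added, since the deposited values were already logged. Testing covered the 12315 of 29991 entries with 2 or more libraries above the floor (147 share a symbol with another entry). R 4.3.3 and limma 3.58.1 were used (lmFit, eBayes with trend, all 4 groups in 1 fit, 4 residual degrees of freedom, 3 with the batch as a replicate block). P-values were adjusted by Benjamini-Hochberg with a threshold of 0.05. Without the block they measure the spread between 2 batches of cells, and with it the spread left after a shared batch difference is removed. In the test between batches the 4 siRNA groups stand as repeats, so its p does not measure how batches vary in general. The pairing comes from the labels, which number the batches, and libraries of the same number deviated together in all 6 pairs of groups (correlations of 0.57 to 0.73). The alternatives tried were other filters, rescaling by medians of ratios, a pseudocount of 32, the replicate block, the block with rescaling, no mean-variance trend, fits of the compared groups only, and leaving out each library.

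All members are named, with up to 4 called genes of each list and comparison by smallest p, and for the 3 members with the widest range of group means the 3 nearest profiles. The members and lists were chosen with earlier results of these data known. SRF was named after its values were seen. Sequences are from RefSeq (GRCh38.p14), and overlaps of exons from GENCODE 29. Results for some genes are not reported here.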

Additional observations from a re-analysis of the deposited data

Results flagged for a closer look

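The EGR1 effects of the LATS1/2 siRNAs were called different with and without p53 siRNA only in the fit of the deposited values with the replicate block. With the replicate block the interaction was 0.62 ± 0.13 on the log2 scale (limma adjusted p = 0.034). The EGR1 difference was -1.13 for siLATS1/2/p53 relative to sip53 and -1.76 for siLATS1/2 relative to siControl. Without the block the adjusted p was 0.74, and with the block and rescaling EGR1 was not called (0.53, limma adjusted p = 0.091). The median interaction of all tested entries was 0.10 as deposited.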

How the results depend on the processing

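With the replicate block the entries called numbered 3937 for siLATS1/2, 3199 for sip53 and 4832 for siLATS1/2/p53 against siControl, 5361 for siLATS1/2/p53 against siLATS1/2, 2720 for it against sip53 and 250 for the interaction, and the members called among them 7, 3, 6, 7, 6 and 1. With the block and rescaling the entries were 3449, 3021, 4685, 4194, 2789 and 81, with 8 members for siLATS1/2 against siControl, 3 for siLATS1/2/p53 against siLATS1/2 and 6 against sip53. Without the mean-variance trend sip53 gave 294 entries, against 475 with it. Fits of only the compared groups gave 0 entries and 0 members in each pair but siLATS1/2/p53 against siControl, with 374 and 2. Rescaling turned JUNB in sip53 to -0.044 and the FOSL1 interaction to -0.075, with or without the block, and neither had been called. Leaving out 1 library at a time, where the lone sample left in a group is assumed to vary like the others, gave 43 to 700 entries for siLATS1/2, 18 to 165 for sip53, 553 to 1265 for siLATS1/2/p53, all against siControl, 12 to 1837 for siLATS1/2/p53 against siLATS1/2 and 49 to 362 against sip53. The members called were 0 to 1 for sip53, 2 to 3 for siLATS1/2/p53 against siControl, 0 to 1 against siLATS1/2 and 1 to 3 against sip53. Differences that changed sign in these fits were all uncalled. For sip53 they ranged from -0.12 to 0.15 for JUNB, -0.059 to 0.32 for JUND, -0.11 to 0.041 for FOSL2 and -0.21 to 0.12 for IER2. For FOSB they ranged from -0.059 to 0.27 in siLATS1/2, -0.48 to 0.14 in siLATS1/2/p53, -0.59 to 0.036 in siLATS1/2/p53 against siLATS1/2, -0.23 to 0.39 against sip53 and -0.33 to 0.29 for the interaction. IER2 ranged from -0.19 to 0.14 in siLATS1/2/p53 and -0.13 to 0.17 against sip53, JUN from -0.17 to 0.037 in siLATS1/2/p53 against siLATS1/2, and the FOSL1 interaction from -0.37 to 0.41. The cause of these changes was not tested. With 2 libraries a group and no known depth, small differences of low genes could not be resolved.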
